A study of Homo sapiens with 15 samples.

Results

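Porcupine is the enzyme of the endoplasmic reticulum that attaches a lipid to WNT proteins, without which they are neither secreted nor bound by their receptors. Lgk974 inhibits it. In WNT-dependent cells, loss of the ligand lets the destruction complex degrade beta-catenin, and genes driven by beta-catenin with TCF and LEF factors, many of them feedback inhibitors such as AXIN2, RNF43, ZNRF3, NKD1 and NOTUM, lose that drive. HPAF-II is a pancreatic ductal adenocarcinoma line with inactive RNF43, a ubiquitin ligase that removes WNT receptors, and its growth depends on the WNT it secretes itself.

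The comparison described here is that of 48 h with Lgk974 against 48 h with its solvent, DMSO. Its members are the 7 peak lists of that time, out of 15 in the series: 4 of HPAF-II cells given DMSO and 3 of cells given 1 µM Lgk974. The other 8 lists, 4 for each treatment at 24 h, have their own DMSO libraries. They are set beside the same regions and also enter 1 test over both times. A region said below to have passed did so in that test. None passed at 48 h alone, where the number of libraries left little room to pass. All libraries are labelled as the same line, HPAF-II, and would share whatever that line carries. The growth protocol also mentions another line, KATO III, and the labels were followed here. Nothing in the labels says whether replicates were separate cultures. The p-values then measure the spread between these libraries, which may be technical. Each list is an ATAC-seq peak list, in which a transposase cuts open chromatin and a peak marks a stretch with many cuts. The cells were measured in bulk, so a change in the share of cells with an open site cannot be told apart from a change in every cell.

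Merging overlapping peaks of the 7 lists on chromosomes 1 to 22 and X gave 159613 union regions, against 222814 for all 15 lists. A region counted as called in a library when one of its peaks overlapped it by at least 1 bp. All 7 libraries called 44724 regions (28.02%), and 47949 (30.0%) were called in a single library. The ends of all 10 ductal epithelial marker genes carried a peak in all 7 libraries, and 0 of 9 acinar and endocrine markers did, with 5 of those 9 carrying none anywhere. Of 9 fibroblast and 9 immune markers, 2 each had an end called in all 7, and 4 and 3 had none. Of 4 intestinal markers, 2 had an end called in all 7 and 1 had none. A call in all 7 is common: 11175 of 19974 protein-coding genes had one, and 15196 had an end called in any library.

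The lists differed in length. The DMSO libraries held 91915, 104877, 84856 and 86503 peaks (replicates 1 to 4) and the Lgk974 libraries 102869, 122834 and 57708 (replicates 1 to 3). The means were 92038 ± 9075 (SD, n = 4) and 94470 ± 33365 (SD, n = 3), an excess of 2433 peaks with Lgk974 at an exact two-sided permutation p of 0.857. Lgk974 replicate 3 stood apart: its peaks had a mean Jaccard overlap of 0.474 with the other libraries, where the rest had 0.579 to 0.644. With each list cut to its 57708 strongest peaks, it had 0.629 and the rest 0.715 to 0.737. In those lists Lgk974 pairs were no more alike (mean 0.690) than pairs of both treatments (0.690), and DMSO pairs had 0.766. Without Lgk974 replicate 3, the 1 Lgk974 pair left had 0.789 and the mixed pairs 0.723. No read counts were used, so the depth behind a peak is unknown, and a region without a peak in a list may still be open there. With 3 against 4 libraries there are 35 ways to assign the labels, so an exact p at 1 region cannot go below 0.0286.

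Calls were therefore read in 3 ways. First, with all deposited peaks, a region was separated when 1 treatment's libraries all called it and the other treatment's all lacked it. Secondly, the same was asked after each list had been reduced to its 57708 peaks of highest −log10 q, the length of the shortest. Thirdly, within those equal lists, a region called in all 7 was described by the rank of its best peak in each library, rank 1 being the strongest. A region ranked higher when all 3 Lgk974 ranks stood nearer the top of the list than all 4 DMSO ranks, and lower when all 3 stood below. The log2 rank ratio is the log2 of the median DMSO rank over the median Lgk974 rank, positive when the peak stood nearer the top with Lgk974. It orders peaks within a library and is not a fold change of accessibility.

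Regions that shifted in rank lay at genes outside the WNT pathway as well as in it. The start of PDK4, a mitochondrial kinase that inhibits pyruvate dehydrogenase, had the largest rank ratio of all regions (5.04). Other regions that moved toward the top with Lgk974 lay in TCF7L2, a TCF factor, and at the starts of the mucin gene MUC3A, the cornified-envelope gene SPRR1B and the antiviral ubiquitin ligase TRIM56. Among those that moved down were a region near NKD2, a gene of WNT feedback, a region near SP5, a transcription factor induced by beta-catenin, and the start of YAP1, the effector of the Hippo pathway. Those 4 starts with a higher rank and 1 with a lower rank are shown by the 250 bases before each RefSeq start (GRCh38.p14). The ranked region overlaps each stretch, in whole or in part, and a promoter under a region below is meant in the same way.

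The sequences run 5′ to 3′ on the gene's strand, in lower case, with capitals for letters that match a motif searched on both strands: CCACCC for KLF, TGANTCA for AP-1, CATTCC for TEAD, TGTTTAC for FOXA and CACGTG for the E-box. None of the 5 held CTTTGAT for TCF/LEF, CCGGAAGT for ETS, AGATAA for GATA or GAAANNGAA for ISRE, and no matches overlap.
PDK4 (chr7:95596517-95596766, minus strand): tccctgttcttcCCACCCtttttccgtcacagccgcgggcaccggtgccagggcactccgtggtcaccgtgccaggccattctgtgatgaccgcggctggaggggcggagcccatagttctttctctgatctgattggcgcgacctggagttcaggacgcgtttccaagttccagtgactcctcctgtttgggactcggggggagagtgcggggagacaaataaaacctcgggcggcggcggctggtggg
MUC3A (chr7:100949284-100949533, plus strand): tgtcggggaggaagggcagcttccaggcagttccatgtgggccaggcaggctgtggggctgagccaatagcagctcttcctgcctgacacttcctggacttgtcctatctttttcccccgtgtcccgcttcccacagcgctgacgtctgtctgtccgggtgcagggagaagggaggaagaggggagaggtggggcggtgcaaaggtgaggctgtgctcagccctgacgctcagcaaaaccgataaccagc
SPRR1B (chr1:153030953-153031202, plus strand): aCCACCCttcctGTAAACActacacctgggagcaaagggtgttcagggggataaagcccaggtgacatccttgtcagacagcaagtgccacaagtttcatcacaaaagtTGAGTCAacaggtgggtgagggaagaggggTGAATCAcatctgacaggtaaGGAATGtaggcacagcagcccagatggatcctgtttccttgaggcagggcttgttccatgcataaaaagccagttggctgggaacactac
TRIM56 (chr7:101085231-101085480, plus strand): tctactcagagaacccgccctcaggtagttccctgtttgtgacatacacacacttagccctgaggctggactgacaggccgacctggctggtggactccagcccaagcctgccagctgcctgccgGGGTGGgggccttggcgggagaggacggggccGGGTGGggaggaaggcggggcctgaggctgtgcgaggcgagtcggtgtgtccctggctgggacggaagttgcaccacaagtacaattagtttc
YAP1 (chr11:102110197-102110446, plus strand): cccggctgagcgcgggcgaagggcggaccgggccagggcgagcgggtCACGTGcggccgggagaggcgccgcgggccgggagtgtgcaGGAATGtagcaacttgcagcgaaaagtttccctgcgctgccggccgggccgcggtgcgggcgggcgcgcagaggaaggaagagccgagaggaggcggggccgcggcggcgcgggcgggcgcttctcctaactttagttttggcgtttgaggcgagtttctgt

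The stretch before PDK4 held a KLF match, that before TRIM56 2 KLF matches, and that before MUC3A none. SPRR1B had 2 AP-1 matches beside KLF, FOXA and TEAD matches, and YAP1 had a TEAD match and an E-box. KLF matches stood in 31.3% of all 34961 promoters of this length, so a match there is common. The TCF/LEF letters stood in 7 of 358 promoters (1.96%) under a region that ranked higher with Lgk974, in 12 of 470 (2.55%) under one that ranked lower, in 175 of 13238 (1.32%) under any region called in all 7, and in 2.27% of all promoters. AP-1 letters stood in 8.94% and 7.23% of promoters under higher and lower regions, against 5.20% under any region called in all 7. The E-box was in 10.9% and 8.09%, against 8.54%. A match is only a run of letters, and absence of a match says nothing of the factor.

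With all peaks, few regions were separated. There were 395 regions called in all 3 Lgk974 and no DMSO libraries (0.247% of regions) and 665 called in all 4 DMSO and no Lgk974 libraries (0.417%). No region passed an exact permutation test of the calls with Benjamini-Hochberg adjustment over 114889 regions that could be tested (smallest adjusted p 0.853), while 1060 had an unadjusted p under 0.05. Since the smallest exact p is 0.0286, none could pass unless most tested regions were separated. The test therefore cannot decide on single regions. Separated regions were weak peaks: their median rank was 65638 for Lgk974 only and 61008 for DMSO only, against 23188 for regions called in all 7. They lay inside or within 50 kb of 680 and 859 protein-coding genes, with 47 genes near both kinds.

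**Figure D1:**
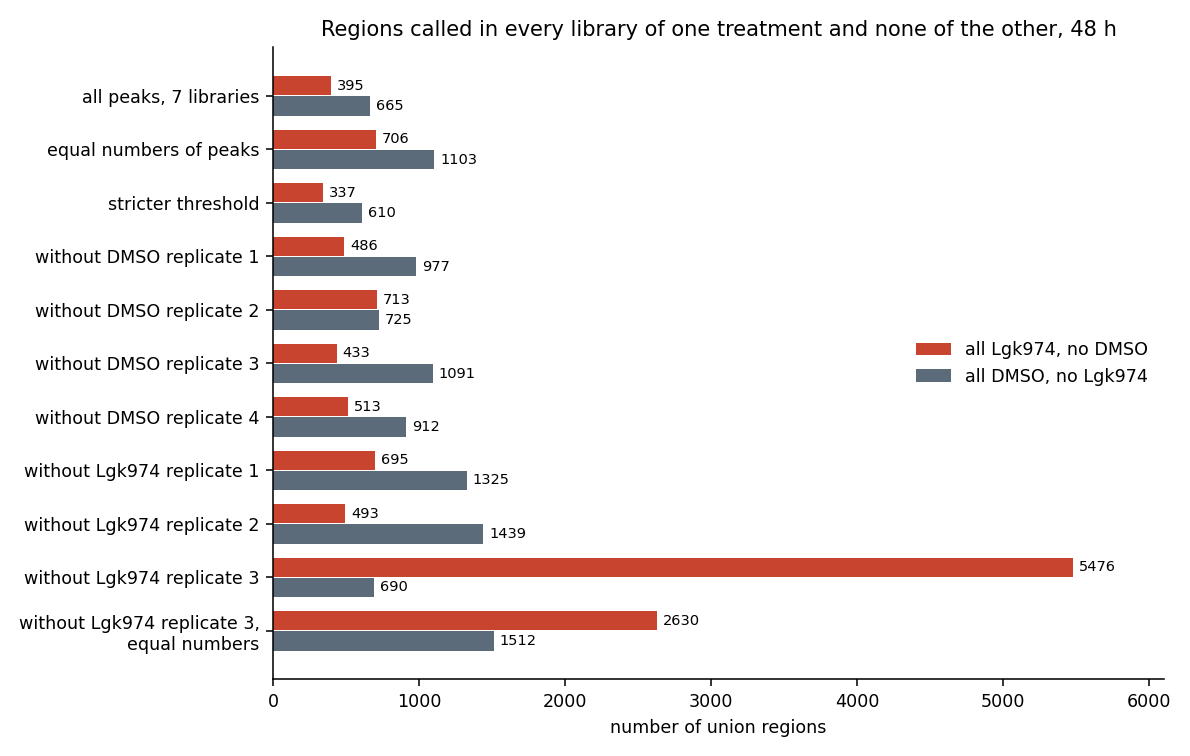
Number of union regions (x axis) whose calls separate the treatments fully at 48 h, red for Lgk974 only and grey for DMSO only, under 11 choices of peaks and libraries (rows). DMSO-only regions outnumbered Lgk974-only ones (665 against 395) until Lgk974 replicate 3 was left out, when the Lgk974-only count was 5476.

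Both counts moved with single libraries, the Lgk974-only count most with Lgk974 replicate 3. Without Lgk974 replicate 3, 5476 regions (3.53%) were called in both remaining Lgk974 and no DMSO libraries and 690 (0.445%) in DMSO only, so the order of the 2 counts turned. Leaving out the first or the second Lgk974 library gave 1325 or 1439 DMSO-only regions, and leaving out DMSO replicate 3 gave 1091. The Lgk974-only count reached 713 when DMSO replicate 2 was dropped and 695 when Lgk974 replicate 1 was. With the 6 remaining lists reduced to 84856 peaks each, the counts were 2630 (2.15%) and 1512 (1.23%). The 2 Lgk974 libraries left held 102869 and 122834 peaks, and the part of list length was not tested. In that design, 2 against 4, the smallest exact p is 0.0667.

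The Lgk974-only regions with the strongest peaks lay in genes of several kinds. A region inside PRKCA, a protein kinase C, had no peak in the 4 DMSO libraries and ranked 19671, 19621 and 27089 with Lgk974. At 24 h, all 4 Lgk974 libraries called it and 0 of the 4 DMSO libraries. Others lay inside LUZP2, RAB37, GDA, ZRANB1 and PLB1, 79194 bp from CCDC112, 12521 bp from ZFP36L1, which encodes a protein that destabilises AU-rich mRNAs, and 173848 bp from TBC1D1. Each of these 8 was called in 3 or 4 Lgk974 and at most 1 DMSO library at 24 h.

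The strongest DMSO-only region, 66778 bp from LYRM9, ranked 13519, 15749, 14924 and 18769 in the DMSO libraries and had no peak with Lgk974. It was called in all 4 DMSO and no Lgk974 libraries at 24 h, as were regions inside TNFAIP8L3, a lipid-transfer protein, and 33030 bp from PDPN, a mucin-type glycoprotein. The regions nearest to KCNJ2, SLC39A10, NTRK2, MAN2A1, NACA2, GLB1L2 and FREM2 were called in 3 DMSO and in 0 to 2 Lgk974 libraries at 24 h. With equal numbers of peaks, only 60 of the 395 Lgk974-only and 107 of the 665 DMSO-only regions were separated again.

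AXIN2, the feedback scaffold of the destruction complex, is a common readout of WNT signalling. A peak lay within 1 kb of one of its ends in each DMSO library and in 0 of the 3 Lgk974 libraries. There were 2 such regions, 1 ranking 70283, 77472, 65381 and 59056 and the other 83039, 91788, 65897 and 61999 in the DMSO libraries. These are weak peaks, and in equal lists no library of either treatment had one. At 24 h, 2 DMSO libraries and 0 Lgk974 libraries called each.

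With all peaks, the other WNT targets with a DMSO-only region within 50 kb were CCND1, BMP4, ID2, TNFRSF19 and MSX2. None of the 39 targets and feedback genes had a Lgk974-only region there with all peaks. CCND1, the cyclin of early G1, had a region 2531 bp from the gene that ranked 55001, 71544, 43222 and 45616 in the DMSO libraries and was called in 4 DMSO and 1 Lgk974 library at 24 h. Over the list this was 0 Lgk974-only against 7 DMSO-only of 552 regions. For all protein-coding genes the counts were 327 and 490 of 126998 regions. In equal lists the targets had 1 Lgk974-only region, near ETS2, and 5 DMSO-only of 308. The counts for all protein-coding genes were then 563 and 837 of 69121. Of the 7 DMSO-only regions, only that near BMP4 was separated again in equal lists.

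The ends of RNF43, ZNRF3, SP5, MYC, CCND1, PORCN, which encodes the drug's target, WNT7B, WNT10A and FZD5 were called in all 7 libraries. Of all protein-coding genes, 11175 of 19974 had such an end. LGR5, the R-spondin receptor, was called in 4 DMSO and 2 Lgk974 libraries, WLS, the WNT carrier, in 4 and 2, NKD1 in 2 and 1, NOTUM in 2 and 2, LEF1 in 1 and 0, and TCF7 in none. Ends of the interferon-stimulated genes IFIT1, IFIT3, ISG15, MX1 and OAS1, of IRF7, RIGI and IFIH1, and of SETDB1, TRIM28 and DNMT1 were called in all 7, and IFIT2 in 4 and 2. MUC5AC, a gel-forming gastric mucin, was called in 1 DMSO and 2 Lgk974 libraries.

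Over all 59098 genes of the annotation, 33 (0.0558%) had a Lgk974-only end and 35 (0.0592%) a DMSO-only end. In equal lists the counts were 43 (0.0728%) and 76 (0.129%), and without Lgk974 replicate 3 the shares with all peaks were 0.667% and 0.0626%. Single regions were also read at gene ends, where another peak may lie. Lgk974-only regions at gene ends included those at SIK3, a salt-inducible kinase, MAP3K7CL, CBFA2T3, ISG20, an interferon-induced exonuclease, and LRP12. The SIK3 region ranked 54138, 35604 and 28951 with Lgk974 and at 24 h in all 4 Lgk974 libraries and 0 DMSO libraries, while ISG20 was called in 3 of each. DMSO-only regions at gene ends included those at DYDC2, KLRC2, ALDH3A1, the AP-1 subunit FOSB, the interferon regulator IRF1 and ATOH8. By calls at either end, ISG20, FOSB and IRF1 are not among the 33 and 35 genes. In equal lists the regions at CBFA2T3, LRP12, ALDH3A1, FOSB, IRF1 and ATOH8 were no longer separated, and those at SIK3, MAP3K7CL, ISG20, DYDC2 and KLRC2 were. At 24 h, IRF1 was called in 1 DMSO and 2 Lgk974 libraries and FOSB in 3 of each.

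With equal numbers, 706 of 84086 regions (0.84%) were Lgk974 only and 1103 (1.31%) DMSO only. This readout often marks loss of rank in place of loss of a peak, because 646 of the 706 and 995 of the 1103 had a weaker peak in at least 1 full list of the other treatment. In every full list of the other treatment, 149 of the 706 and 0 of the 1103 had a weaker peak. The list of Lgk974 replicate 3 is not shortened, so the DMSO-only regions have no peak there. Lgk974-only regions at gene ends in equal lists included those at TFF2, a gastric trefoil factor (ranks 26936, 38150 and 17711), ID3, a helix-loop-helix inhibitor, ZG16B and STK17B. By calls at either end, ID3 is not a gene with a Lgk974-only end. DMSO-only regions at gene ends included those at KRTAP3-1 (27395, 13892, 9779 and 6803), JAKMIP2, TRIM8 and SHROOM3.

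Ranks could be compared at 36579 regions called in all 7 equal lists. Of these, 2424 (6.63%) ranked higher in all 3 Lgk974 libraries and 2794 (7.64%) ranked lower. At 48 h alone none passed an exact permutation test of mean log2 rank with Benjamini-Hochberg adjustment (smallest adjusted p 0.308), though 1742 higher and 1647 lower regions had an unadjusted p under 0.05. Here too the smallest exact p is 0.0286, so none could pass unless most tested regions reached it. Gene starts shifted less often than other places: 2.78% of 7622 regions at starts ranked higher and 3.21% lower, against 8.11% and 8.77% inside genes and 7.75% and 9.65% between genes. With 1 of the 7 libraries left out, which makes full separation easier, 3123 to 4973 regions ranked higher and 3441 to 5448 lower. The shares are descriptions, and neighbouring regions are not independent.

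A test with more libraries was made over both times. The difference in mean log2 rank was summed over 24 h and 48 h and the labels permuted within each time, which allows 2450 assignments and a smallest exact p of 0.000408. At the 28250 regions called in all 15 equal lists, 784 (2.78%) ranked higher and 431 (1.53%) lower with Lgk974 past an adjusted p of 0.05 (smallest 0.0210). Unadjusted, 2664 and 2238 were under 0.05. Of the 1700 tested regions that ranked higher at 48 h, 661 (38.9%) passed in that direction and 0 in the other, and of the 1939 that ranked lower, 386 (19.9%) and 0. The 48 h libraries take part in this test, so these shares are not support from other data.

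The calls depended on the quantity that orders the peaks. When the same peaks were ordered by the deposited fold in place of −log10 q, 781 of the 784 and 428 of the 431 regions kept their direction and 592 and 307 had an unadjusted exact p under 0.05, but none passed adjustment (smallest adjusted p 0.0686). At 48 h, 743 of the 2424 and 1024 of the 2794 were again fully separated by fold and 0 in the opposite direction. Where a named region goes the other way by fold, it is said beside it. Without Lgk974 48 h replicate 3, 454 higher and 225 lower regions passed, and without DMSO 24 h replicate 3, 1160 and 1228.

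The start of PDK4 (region chr7:95595812-95597166, hg38) ranked 3489, 5606, 4288 and 3180 in the DMSO libraries and 118, 77 and 183 with Lgk974. At 24 h it ranked 3238, 2560, 10028 and 5417 with DMSO and 970, 589, 538 and 1162 with Lgk974. The groups do not overlap at either time, and the region passed over both times at an adjusted p of 0.0210 by the exact permutation test. The deposited fold of its peak had a 48 h median of 8.69 with DMSO, and 9.48 with Lgk974.

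Regions in or near metabolic, trafficking and nuclear genes followed PDK4 at the top. Inside RAB37, a secretory GTPase, the ranks were 6576, 2227, 2169 and 900 against 166, 38 and 95. Inside DAP, a regulator of autophagy, they were 368, 1606, 2489 and 2097 against 18, 312 and 85. Inside SP100, a component of nuclear bodies, they were 5499, 4803, 5394 and 4123 against 124, 284 and 1084. In all 3 the groups are apart at 48 h, with adjusted p values of 0.0210, 0.0296 and 0.0296 over both times. A region 155448 bp from OPA1, a mitochondrial fusion GTPase, moved from 39865, 26415, 33904 and 33599 to 1760, 1027 and 2058 (log2 rank ratio 4.26) and its median fold from 5.64 to 9.45. The region 15173 bp from ARRDC2 had a rank ratio of 4.69, but a median fold of 13.1 with DMSO and 12.4 with Lgk974.

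The 25 regions with the largest rank ratios upward were picked by 48 h ranks, which also enter the test over both times. The number of them that passed is therefore not separate support. Over all tested regions 2.78% passed higher. Of these 25, 22 could be tested over both times and 21 passed. They include regions near ACER2, an alkaline ceramidase, near FGF1, inside APP, near GLDC, the glycine decarboxylase, and inside TMPRSS4, a membrane serine protease. The region 78947 bp from FGF1 ranked 56935, 20020, 35883 and 20509 with DMSO and 2671, 2366 and 2898 with Lgk974. The start of CERS5, a ceramide synthase, was among the strongest peaks of every library (435, 339, 165 and 300 against 34, 36 and 123), with an adjusted p of 0.0363.

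**Figure D2:**
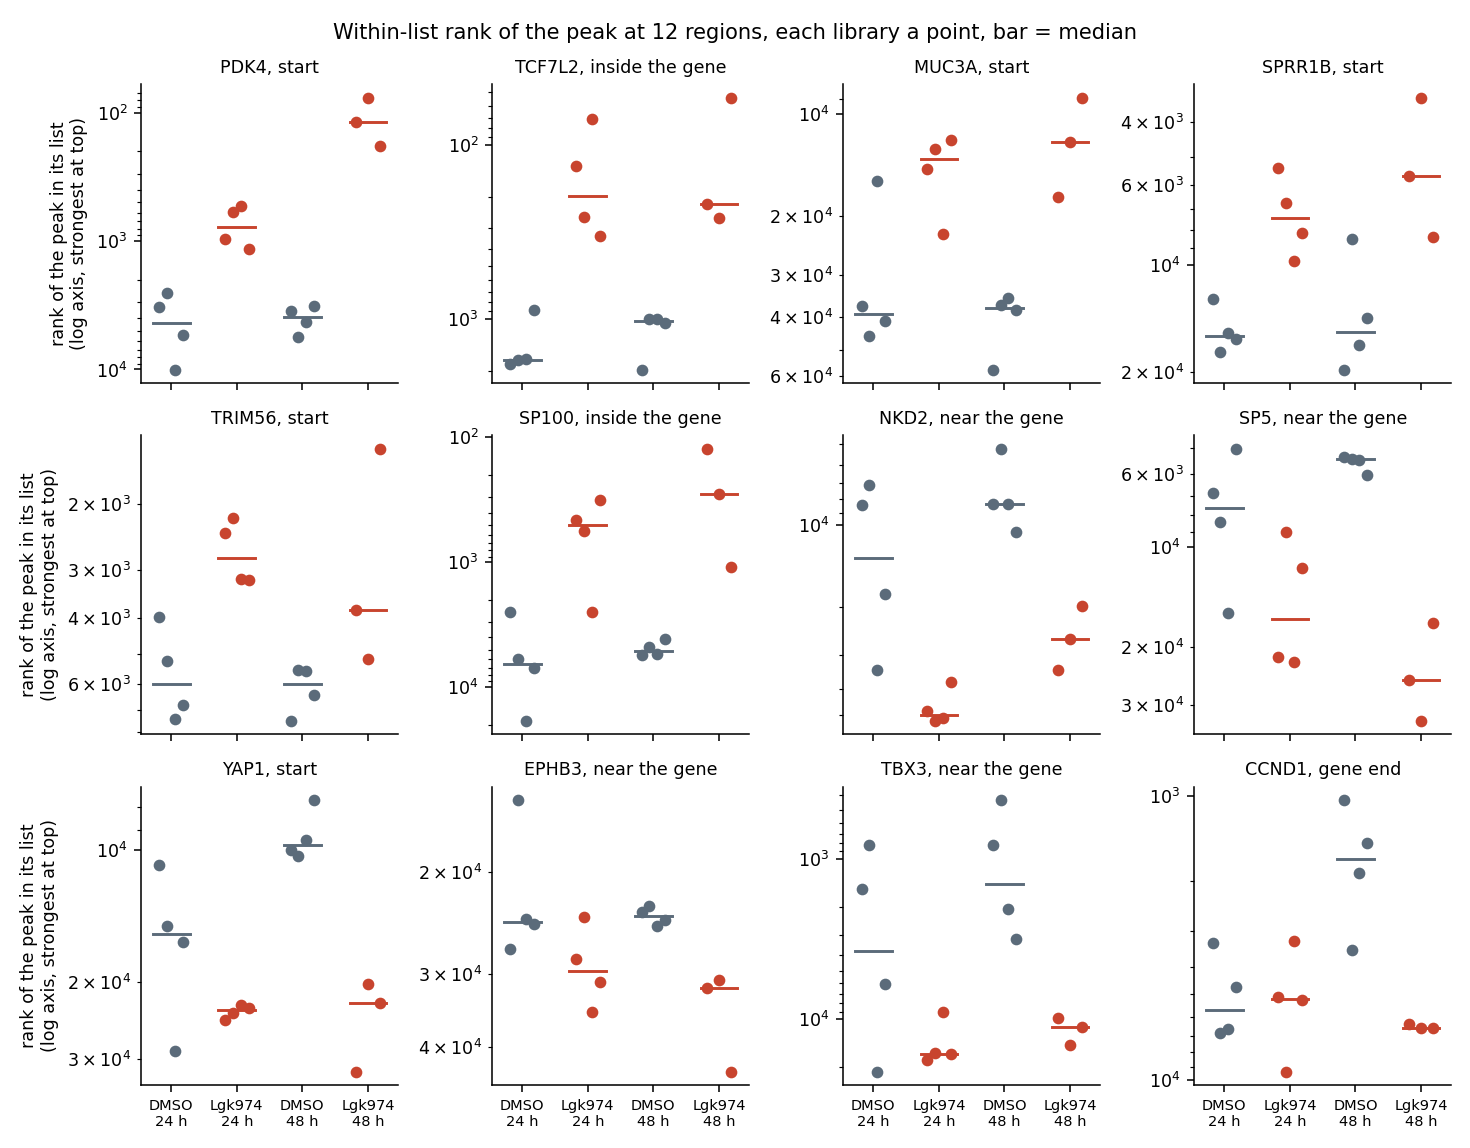
Rank of the best peak (log axis, strongest at the top) at 12 regions in each library of 24 h and 48 h, points for libraries and bars for medians, grey for DMSO and red for Lgk974. Lists held 53610 peaks at 24 h and 57708 at 48 h. At PDK4, all Lgk974 libraries stand above all DMSO libraries at both times, and at CCND1 they are apart at 48 h only.

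Downward, the largest ratio belonged to a region 165559 bp from POU5F1B on chromosome 8, which ranked 806, 1309, 1423 and 2733 with DMSO and 21754, 31888 and 36784 with Lgk974. Its median fold was 10.8 and 7.49. The region passed over both times (adjusted p 0.0363). A region 56565 bp from LIPG, an endothelial lipase, fell back from 601, 577, 423 and 1011 to 14476, 8864 and 6001, with an adjusted p of 0.0210. Inside STXBP5L the ranks were 1226, 824, 3339 and 2664 against 18906, 25114 and 33123, and those groups were apart at 24 h too (1510, 603, 6902 and 4598 against 21719, 27105, 26462 and 25083).

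The 25 regions with the largest ratios downward were picked by 48 h ranks in the same way, and 1.53% of all tested regions passed lower. Of these 25, 21 could be tested over both times and 12 passed. They include regions inside CS, the citrate synthase, which also lies within 50 kb of STAT2, inside CUX1, a homeobox factor, inside EDAR, the ectodysplasin receptor, and 9296 bp from IFNA5 in the interferon cluster of chromosome 9. At CS the ranks were 2043, 811, 452 and 514 against 10219, 8475 and 9003. EDAR had 4 of its 6 ranked regions lower and 0 higher, and MMP7, the matrilysin gene, 4 of 5. RAD51B had 7 of 38 lower and 2 higher. A cluster of neighbouring genes on chromosome 19, SSBP4 (7 of 11 regions higher), ISYNA1 (6 of 10), ELL (5 of 17) and GDF15 (4 of 7), held the most regions that ranked higher, and its genes share regions.

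At gene starts, 14 of the 15 regions with the largest ratio in each direction could be tested over both times, and 6 upward and 5 downward passed. These starts too were picked by 48 h ranks, and 2.78% and 1.53% of all tested regions passed. MUC3A ranked 57325, 36949, 35108 and 38191 with DMSO and 17627, 12096 and 8944 with Lgk974, and its median fold was 4.43 and 6.30. SPRR1B ranked 19651, 8479, 16732 and 14110 against 5649, 3425 and 8357. Both passed with an adjusted p of 0.0296, although at MUC3A the DMSO 24 h replicate 3 (15761) lies among the Lgk974 ranks of 24 h. SERPINA5, a serpin, and GUCA2B, uroguanylin of the intestinal epithelium, also passed. The 5 downward that passed were FDXACB1, CPOX, an enzyme of haem synthesis, CD320, the transcobalamin receptor, MAGI2 and CRLS1, the cardiolipin synthase. CPOX ranked 3523, 3570, 1403 and 2355 against 7779, 9465 and 6749.

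Among WNT targets and feedback genes, 139 regions within 50 kb could be ranked, of which 5 (3.60%) ranked higher and 17 (12.2%) lower. For all protein-coding genes the shares were 6.39% and 7.14% of 31436 regions. At the targets' own ends, 0 of 23 regions ranked higher and 4 lower, against 321 and 341 of 9775 for all genes. Over both times, 2 passed higher and 5 lower of 111 tested, beside 634 and 357 of 24926. The median log2 rank ratio near the targets was −0.086, and that near all genes −0.0086. A list outside the pathway had a like share lower: acinar and endocrine markers had 5 of 43 regions lower (11.6%) and 3 higher. Over both times, 3 of their 32 tested regions passed higher and 2 lower. The counts for WNT targets describe that list, which was chosen with earlier results of these data known.

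The 5 target regions that passed downward lay at or near NKD2, SP5, MYC, EPHB3 and BMP4. A region 4638 bp from NKD2, which encodes an inhibitor of Dishevelled, lies inside a neighbouring gene, and its ranks were 8346, 5230, 8317 and 10588 with DMSO and 34001, 26264 and 19882 with Lgk974, and the groups were apart at 24 h as well (8422, 7109, 34013 and 17893 against 48463, 52473, 51494 and 37946). Its adjusted p was 0.0210 and its median fold 6.78 and 5.22. The region 20839 bp from SP5 ranked 5343, 5402, 5436 and 6051 against 25249, 33488 and 16997, with an adjusted p of 0.0475 and a median fold of 10.2 and 7.80. The DMSO ranks there lie close together at 48 h, and at 24 h the groups overlap (6853, 8373, 15793 and 5041 against 21524, 9013, 22297 and 11541).

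MYC and CCND1, both known targets, differed in how they behaved over time and by fold. A region at an end of MYC ranked 11927, 13877, 14356 and 13763 against 34589, 30220 and 14582 and passed over both times (adjusted p 0.0210), yet its median fold was 5.33 with DMSO and 5.67 with Lgk974, the other way. Lgk974 replicate 3 stood only just below the DMSO libraries there. At an end of CCND1 the ranks were 1034, 3488, 1875 and 1470 against 6370, 6560 and 6555 at 48 h, but the groups overlapped at 24 h (log2 rank ratio 0.13) and the region did not pass over both times (adjusted p 0.252). Near TBX3, a T-box factor, the ranks were 821, 431, 2050 and 3195 against 9902, 14521 and 11212, with an adjusted p of 0.0685.

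On the side of ligands and receptors, 4 of 137 regions (2.92%) ranked higher and 8 (5.84%) lower, beside 6.39% and 7.14% for all genes. A region at the RefSeq promoter of WNT10A, which lies inside the full extent of the gene and not at its outer ends, ranked 15198, 13375, 13149 and 18246 against 29379, 21469 and 20742 at 48 h, without a difference at 24 h (log2 rank ratio 0.031, adjusted p over both times 0.719). Near FZD2, a WNT receptor, a region passed downward with a small ratio (−0.25). Regions inside the co-receptors LRP5 and ROR1 passed upward. The LRP5 region ranked 4933, 2557, 3062 and 2331 against 1116, 1638 and 1424.

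Of the transcriptional and destruction-complex genes, 11 of 187 regions (5.88%) ranked higher and 8 (4.28%) lower, beside 6.39% and 7.14% for all genes. Over both times 3 and 1 of 166 passed, beside 634 and 357 of 24926. Inside TCF7L2 the ranks were 1959, 997, 1004 and 1057 with DMSO and 219, 264 and 54 with Lgk974. They were 1811, 1728, 1713 and 894 against 132, 260, 71 and 333 at 24 h, with an adjusted p of 0.0210 over both times. A weaker region inside TCF7L2 was DMSO only with all peaks (76928, 92636, 53484 and 59213), and 3 DMSO libraries and 1 Lgk974 library called it at 24 h. A region inside TCF7L1 moved up too (26947, 22722, 32491 and 30484 against 12603, 15424 and 7454), as did 1 inside CTBP2, a corepressor. A region 22713 bp from GSK3A, a kinase of the pathway, passed downward.

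**Figure D3:**
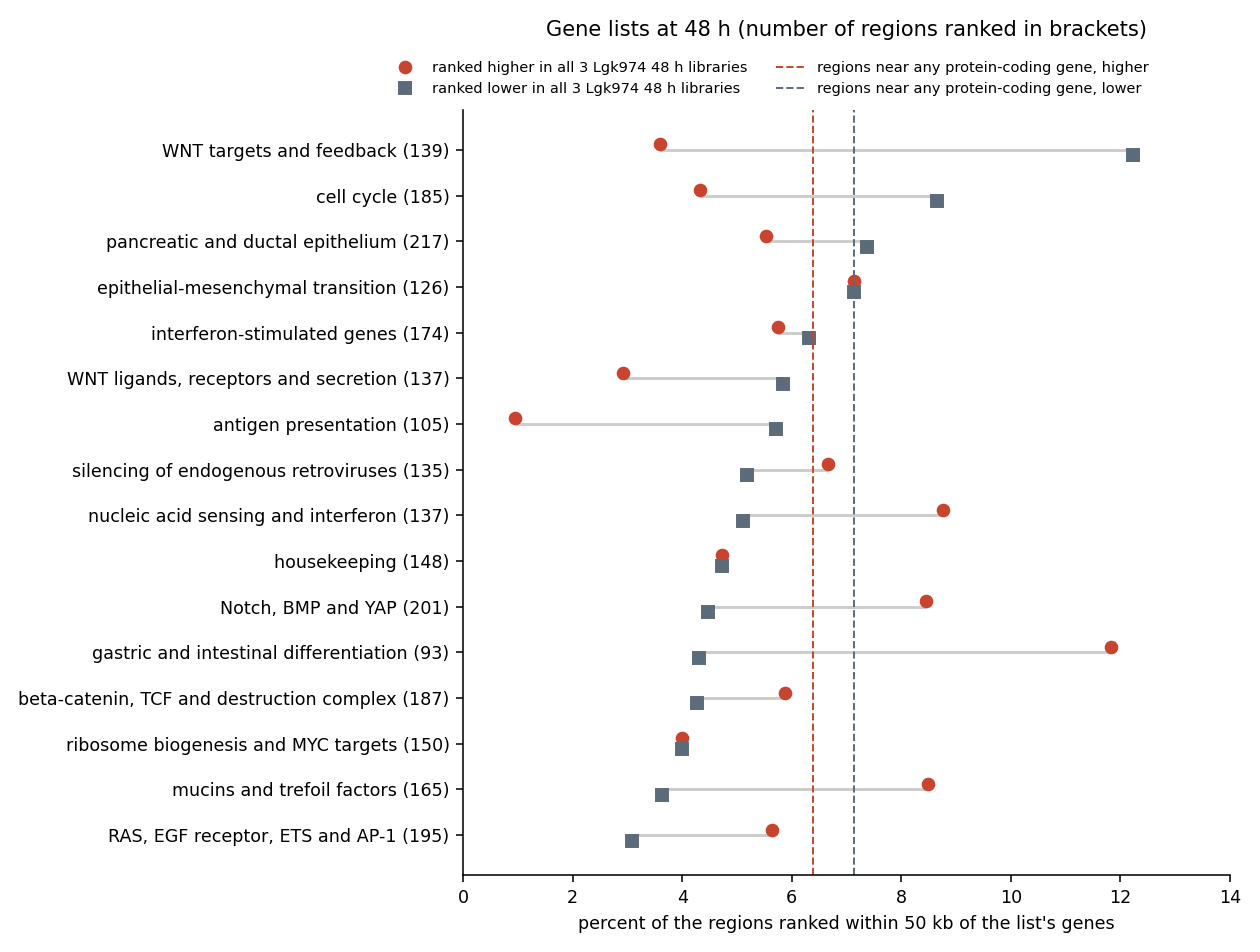
Percent of the regions ranked within 50 kb of each list's genes (x axis) that ranked higher (red circles) or lower (grey squares) in all 3 Lgk974 48 h libraries, for lists with at least 80 ranked regions, whose number is in brackets. Dashed lines give the shares near any protein-coding gene (6.39% higher, 7.14% lower). Among the lists shown, the WNT targets have the largest share lower (12.2%). Acinar and endocrine markers, not shown, had 5 of 43 regions lower (11.6%) and 3 higher (6.98%).

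Mucin and trefoil genes, which make and glycosylate the mucus of glandular epithelia, had 14 of 165 regions higher (8.48%) and 6 lower (3.64%), and at their own ends 4 of 23 higher and 0 lower. Over both times, 9 of 137 regions passed higher and 2 lower. For all genes, 6.39% ranked higher and 7.14% lower, and at ends 321 and 341 of 9775. Of 24926 regions tested near all genes, 634 and 357 passed. Inside MUC16 the ranks were 31427, 11138, 31027 and 15974 with DMSO and 7677, 4641 and 3054 with Lgk974. A region at an end of TFF1, a gastric trefoil factor, ranked 29667, 25965, 24880 and 19413 against 13388, 12784 and 10890. A region 955 bp from the start of MUC2, also near MUC6, ranked 43006, 26706, 19097 and 19031 against 16575, 16210 and 7776. In each of these the groups are apart, and each passed with an adjusted p of 0.0210. A region 37389 bp from MUC13, which also passed, differed little at 48 h (8115, 8950, 8073 and 7668 against 7350, 6319 and 4734), and a region 48304 bp from MUC15 passed downward.

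Genes of gastric and intestinal differentiation had 11 of 93 regions higher (11.8%) and 4 lower (4.30%). At their ends 4 of 10 ranked higher and 0 lower, and over both times 4 of 73 passed higher and 2 lower. The shares for all genes were 6.39% and 7.14%. At all gene ends they were 321 and 341 of 9775, and over both times 634 and 357 of 24926. A region at an end of CDX2, also within 50 kb of PDX1, homeobox factors of intestine and pancreas, ranked 16502, 21610, 15797 and 19357 against 12617, 8341 and 7861. One inside VIL1, the villin of brush borders, ranked 9620, 5281, 3889 and 5071 against 3190, 2643 and 1076. Both passed with an adjusted p of 0.0210. Near LYZ, lysozyme, 1 region passed in each direction.

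Cell-cycle genes had 8 of 185 regions higher (4.32%) and 16 lower (8.65%), and 0 of 37 regions at their ends higher and 4 lower. All genes had 6.39% and 7.14%, and 321 and 341 of 9775 at their ends. The start of CCNA2, cyclin A, ranked 5043, 8435, 11469 and 11315 against 14718, 12430 and 23239 at 48 h. The start of AURKB, a mitotic kinase, ranked 12240, 16795, 17953 and 12915 against 18028, 26064 and 25076. Neither passed over both times (adjusted p 0.376 and 0.0868). In this list only a region 2114 bp from FOXM1, a factor of mitotic genes, ranked lower at 48 h and passed, with a rank ratio of −0.20. Inside CDK6 a region ranked 2968, 3603, 5633 and 3783 against 19419, 15477 and 22289, with an adjusted p of 0.0517. Another region inside CDK6 went the other way: no DMSO library called it, it ranked 40796, 41793 and 43126 with Lgk974, and at 24 h 1 DMSO and 4 Lgk974 libraries called it. Ribosome biogenesis genes had 6 of 150 higher and 6 lower (4% each), and 4 of 133 passed higher and 0 lower. Near all genes, 634 and 357 of 24926 passed.

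Interferon-stimulated genes had 10 of 174 regions higher (5.75%) and 11 lower (6.32%), near the shares for all genes (6.39% and 7.14%). The end regions of IFIT1, IFIT3, ISG15, MX1, OAS1, IRF7, RIGI and IFIH1 overlapped between treatments. At the end of ISG15, a ubiquitin-like protein, the ranks were 17419, 20571, 25405 and 15150 with DMSO and 10995, 15190 and 8494 with Lgk974, so DMSO replicate 4 lies among the Lgk974 libraries. Genes of nucleic acid sensing and interferon production had 12 of 137 higher (8.76%) and 7 lower (5.11%). At their ends 4 of 27 ranked higher and 0 lower (for all genes, 321 and 341 of 9775). Of these, the start of TRIM56 (7479, 5485, 5521 and 6414 against 3821, 5147 and 1434) and an end of TRIM25 (55536, 38027, 30855 and 31801 against 18923, 17568 and 7726) passed over both times with an adjusted p of 0.0210. Both encode ubiquitin ligases of antiviral signalling. Over the list 3 of 123 regions passed higher and 3 lower, beside 634 and 357 of 24926 for all genes. Those that passed lower include regions near IFNB1 and inside JAK1, and another region inside JAK1 passed higher.

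Genes that silence endogenous retroviruses had 9 of 135 regions higher (6.67%) and 7 lower (5.19%), beside 6.39% and 7.14% for all genes. Over both times 3 and 1 of 120 passed, beside 634 and 357 of 24926. The start of SETDB1, a histone H3 lysine 9 methyltransferase, ranked 11648, 12077, 10278 and 11255 against 16188, 12764 and 12293, lower in all 3 but with a rank ratio of only −0.16 and an adjusted p of 0.786. A region 34262 bp from EZH2, the Polycomb methyltransferase, passed downward (2951, 1213, 1677 and 2123 against 9237, 4760 and 4506). Ends of TRIM28 and DNMT1 overlapped between treatments. Antigen presentation genes had 1 of 105 higher (0.952%) and 6 lower (5.71%), and none passed.

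Pancreatic and ductal genes had 12 of 217 regions higher (5.53%) and 16 lower (7.37%), near the shares for all genes (6.39% and 7.14%). Near FOXA2, an endoderm factor, a region ranked 9367, 4772, 3147 and 5127 against 888, 1153 and 914 and passed (adjusted p 0.0210). Near EPCAM, an epithelial adhesion molecule, a region ranked 3777, 3840, 3935 and 2897 against 20942, 29306 and 9516 and passed downward at the same adjusted p. Inside GATA6, a factor of the classical pancreatic subtype, a region ranked 7800, 9049, 11471 and 11886 against 24491, 29831 and 21178 but was not called in all 15 lists.

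Of the regions near Notch, BMP and YAP genes, 17 (8.46%) ranked higher and 9 (4.48%) lower, beside 6.39% and 7.14% for all genes. The start of YAP1 ranked 10022, 10316, 9527 and 7712 with DMSO and 32051, 20236 and 22361 with Lgk974. At 24 h it ranked 10865, 14928, 28802 and 16260 against 24417, 23544, 22641 and 22912, so that DMSO replicate 3 lies below the Lgk974 libraries, and it passed with an adjusted p of 0.0475. A region 38636 bp from WWTR1, the YAP1 relative TAZ, passed upward (42241, 24303, 34442 and 34778 against 11320, 13258 and 16380). Of RAS, EGF receptor, ETS and AP-1 genes, 11 of 195 regions (5.64%) ranked higher and 6 (3.08%) lower. Over both times 5 of 162 passed higher and 0 lower, among them regions near FOSL1, FOSL2 and DUSP5. Near all genes, 634 and 357 of 24926 passed. Epithelial-mesenchymal genes had 9 of 126 in each direction (7.14%). Housekeeping genes had 7 of 148 in each direction (4.73%), and 3 of 130 passed higher and 1 lower.

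The 24 h libraries, none of which entered the 48 h readouts, showed the same regions in part. Of the 395 Lgk974-only regions of 48 h, 91, 73, 74 and 24 were called in the DMSO and 234, 265, 45 and 254 in the Lgk974 libraries of 24 h. Of the 665 DMSO-only regions, 567, 549, 134 and 313 were called with DMSO and 147, 165, 20 and 190 with Lgk974. Lgk974 replicate 3 called the fewest of its treatment for both kinds, DMSO replicate 3 the fewest DMSO-only regions of its treatment, and DMSO replicate 4 the fewest Lgk974-only regions of all. The ratio of Lgk974-only to DMSO-only calls was 0.160, 0.133, 0.552 and 0.0767 in the DMSO and 1.59, 1.61, 2.25 and 1.34 in the Lgk974 libraries, with no overlap; how far list length moves this ratio was not tested.

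**Figure D4:**
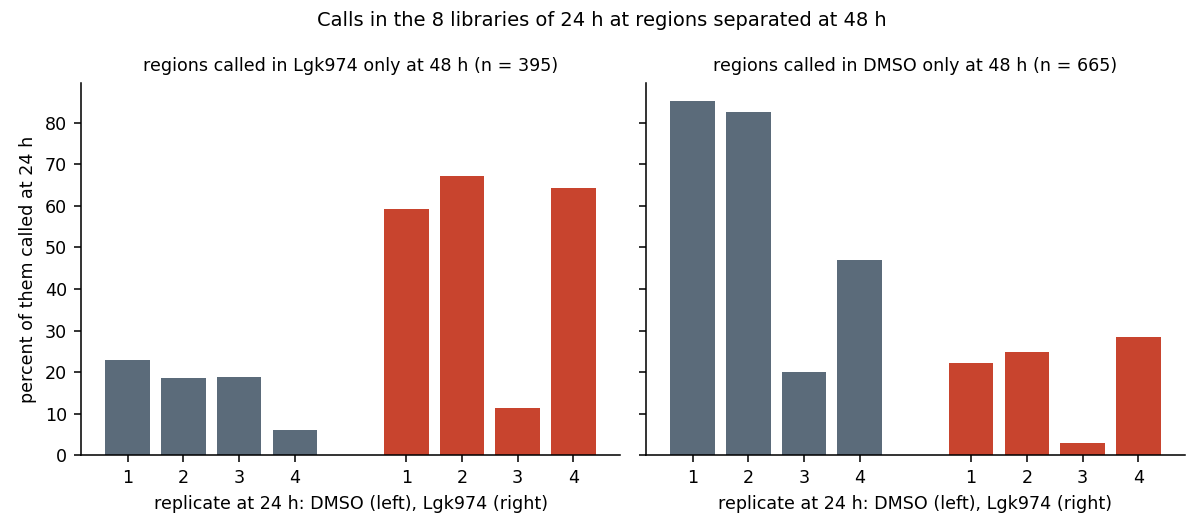
Percent of the regions separated at 48 h (left, 395 Lgk974-only; right, 665 DMSO-only) that each library of 24 h called, with DMSO in grey and Lgk974 in red. DMSO replicate 3 called 134 of the 665 and 74 of the 395, Lgk974 replicate 3 20 and 45, and each library's ratio of the 2 kinds lies on its own treatment's side.

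By ranks, 1700 of the 2424 higher regions were called in all 8 equal lists of 24 h. All 4 Lgk974 ranks stood above all 4 DMSO ranks at 461 of them (27.1%) and below at 2. The median rank was higher with Lgk974 at 87.0%. Of the 1939 lower regions called at 24 h, 239 (12.3%) were fully lower and 4 higher. Over all 28250 regions the shares were 4.33% higher and 2.59% lower. Without DMSO 24 h replicate 3 the shares were 37.5% and 34.99%, against 6.98% and 6.59% of all regions.

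**Figure D5:**
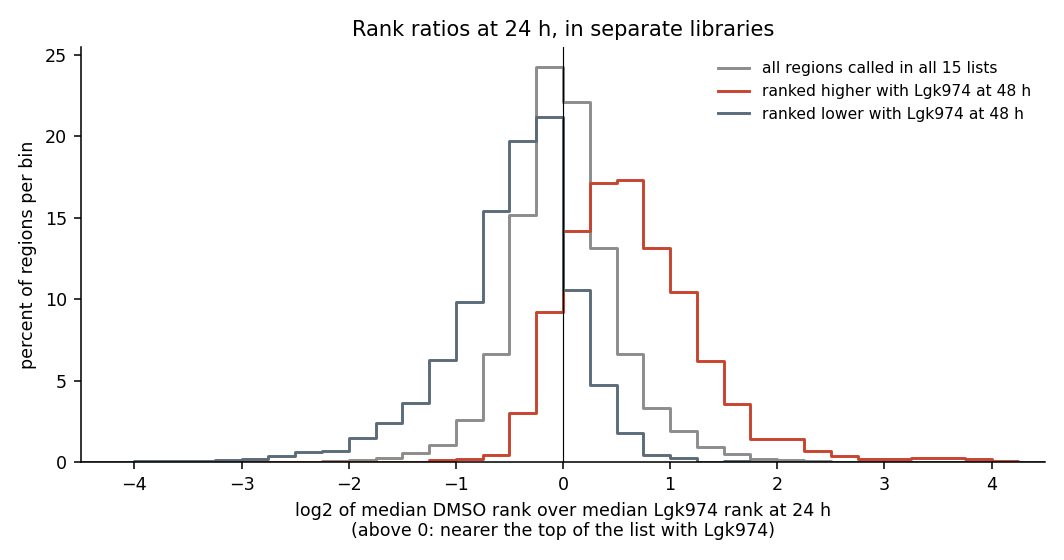
Distribution of the log2 rank ratio at 24 h (x axis, above 0 nearer the top with Lgk974) as a percent of regions per bin (y axis), for regions that ranked higher (red) or lower (blue-grey) at 48 h and for all regions called in all 15 lists (light grey). The red curve lies to the right of all regions, with a median of 0.58, and the blue-grey curve to the left, with a median of −0.39.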

How the data were processed

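The authors deposited 1 narrowPeak list per library, made from ATAC-seq reads of cells labelled HPAF-II. The submitters' processing notes name Bowtie2, Trimmomatic, Picard, SAMtools, bedtools, MACS2, HOMER, ChIPseeker, DiffBind, DESeq2 and the build hg38, without roles or versions. Each deposited peak has a score, a fold enrichment (ratio), a −log10 p and a −log10 q, all the authors' values. No read counts were used, so DESeq2 and edgeR were not run, and the threshold behind the lists is not given in the sources used here.

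Peaks on other contigs (490 of 651562 at 48 h) were left out, and the chromosome name of 1 damaged line was read as chromosome 1. Peaks were merged at 1 bp overlap. Ranks order peaks by −log10 q within lists of 57708 peaks (48 h) or 53610 (24 h). Gene ends are within 1 kb of a gene's start or end in RefSeq (GRCh38.p14). Regions at gene starts lie within 1 kb of the start in the RefSeq promoter table, which gives one for 27195 of 59098 genes and can lie inside a gene's full extent. A region is near a gene within 50 kb of it, and "inside" means inside that gene. Exact two-sided permutation tests with Benjamini-Hochberg adjustment were used, threshold 0.05, and tested on simulated data. Genes named are the regions with the best median rank or largest rank ratio, gene starts and ends, fixed lists and always-reported genes. The rank readouts, their application of the naming rule and the test over both times were added after seeing the data. The comparison and the gene lists were chosen with earlier results of these data known. Scripts ran in Python 3.11.15 with scipy 1.17.1, pandas 2.3.3 and numpy 2.4.6, and figures were drawn with matplotlib 3.10.9. Some named genes are not reported here.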

Additional observations from a re-analysis of the deposited data

Results flagged for a closer look

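At 6 regions the ranks of the treatments were fully apart at both times but in opposite directions; the difference between the times was not tested. The start of BBX, an HMG-box factor, had a log2 rank ratio of −1.07 at 48 h (4944, 8536, 5609 and 6729 with DMSO, 13642, 12953 and 10848 with Lgk974) and of 0.79 at 24 h. The start of DPAGT1, which begins N-glycan synthesis, had −0.82 and 0.35. A region 48821 bp from AKAP13, an anchoring protein of kinase A, had −0.69 and 0.73, and 1 inside GAS7 had −0.49 and 0.60. In the other direction, a region 143171 bp from PRICKLE1, a gene of planar cell polarity, had 0.38 at 48 h and −0.82 at 24 h, and 1 inside TBC1D22A had 0.55 and −0.57.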

How the results depend on the processing

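Against 395 Lgk974-only and 665 DMSO-only regions, equal lists gave 706 and 1103, equal lists without Lgk974 replicate 3 gave 2630 and 1512, and leaving out each library in turn gave 433 to 5476 and 690 to 1439. The share of all genes with a separated end was 0.0558% for Lgk974 only and 0.0592% for DMSO only. It was 0.0728% and 0.129% in equal lists, 0.340% and 0.157% in the 6 equal lists, 0.0169% and 0.0135% with starts alone, and 0.0677% to 0.667% and 0.0626% to 0.201% with each library left out. A stricter −log10 q, 50% cover, windows at summits and the union of all 15 lists kept the counts of regions within 1.5 times. The excess of 2433 peaks ranged from −11749 to 20814 with 1 library left out (−1767 without Lgk974 replicate 1), the difference in covered length of −0.0689 Mb from −6.24 to 10.9 (0.166 with the stricter threshold, −1.74 in equal lists), and that in the share of summits at gene ends of 0.377 percentage points from −1.82 to 1.71 (−0.00297 in equal lists). Against 2424 higher and 2794 lower ranks, lists re-picked by fold gave 870 and 1402, the same peaks ordered by fold 913 and 1389, lists of 30000 peaks 1078 and 1313, and leaving out each library 3123 to 4973 and 3441 to 5448. Against 784 and 431 over both times, both fold orders gave 0 and 0, leaving out Lgk974 48 h replicate 3 gave 454 and 225, and leaving out DMSO 24 h replicate 3 gave 1160 and 1228. At the ends of NKD1 the stricter threshold reversed the difference in calls (8.33 percentage points). The cause of these shifts was not tested. Leaving out a library makes full separation of the rest easier by construction.

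Same-numbered libraries had correlations of their deviations of 0.113, 0.061 and 0.165. The other pairs had −0.183 to 0.144, most of them negative. The numbers were not taken as pairs in the main readouts, and whether same-numbered libraries share a batch was not tested. With the replicate block the counts were 513 and 908 regions (0.0711% and 0.0863% of genes by ends) and 6548 and 7027 ranks, and differences of 588 peaks, −1.43 Mb and 0.652 percentage points.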
